A study of Homo sapiens with 24 samples.

Results

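The 10 genes described here encode cytosolic chaperones and cochaperones of the heat shock family: HSPA8, HSPH1, HSPA4, DNAJA1, DNAJB1, HSP90AA1, HSP90AB1, CHORDC1, STIP1 and AHSA1. They were chosen by symbol as cytosolic folding genes controlled by the transcription factor HSF1, and all 10 were found among the 19692 entries of the count tables. Of these, 8 had enough reads to be tested. STIP1 had 8 reads in the control line and 9 in the ZC3H7B-OE line, and AHSA1 had 35 and 31, so neither was compared. Both are widely expressed in cultured human cells, and the sources used here do not say which part of a transcript was counted or how reads with several positions were treated, so these counts may not reflect the level of the genes.

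The samples were 24 libraries of poly(A) RNA from HEK293, an established human embryonic kidney line, in a catabolic SLAM-seq experiment. One line carried a Flag/HA control construct and the other overexpressed Flag/HA-tagged ZC3H7B, an RNA-binding protein (ZC3H7B-OE). Both lines received 100 µM 4-thiouridine (s4U) with 1 µg/mL doxycycline for 24 h, a wash, and then 10 mM uridine for 0, 2, 4 or 6 h, with 3 libraries per line and time. A media change time of 6 h is also listed for all 24 libraries. In SLAM-seq the s4U built into new RNA is alkylated and read as C, so a read with a T>C conversion is called labelled and is taken as RNA made during the pulse. How many conversions a labelled read needed is not given in the sources used here. The labels do not say whether either line is 1 clone, and uninduced cells were not analysed here. Differences that the lines had before doxycycline and those that came after it cannot be told apart. The labels call the libraries replicates without naming separate cultures. The p-values therefore cover only how these samples spread, and that spread may be technical.

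As background, HSP70 proteins such as HSPA8 bind unfolded stretches of proteins in a cycle driven by ATP. J-domain proteins (DNAJA1, DNAJB1) bring substrates to HSP70 and start ATP hydrolysis, and HSP110 proteins (HSPH1, HSPA4) are relatives of HSP70 that exchange its nucleotide. HSP90 proteins (HSP90AA1, HSP90AB1) act later on near-folded clients with the help of cochaperones. Among these, STIP1 bridges HSP70 and HSP90, AHSA1 stimulates the HSP90 ATPase and CHORDC1 binds HSP90. HSF1 binds heat shock elements, which are arrays of inverted GAA units in promoters, and these genes are known for rising together when proteins misfold.

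The promoter stretches below show such arrays and are given because HSF1 control is what the genes share. RefSeq (GRCh38.p14) start windows, reaching from 250 bases before to 50 after the start, were found for all 10 genes, 17 windows in all. Each 30-base stretch reads 5′ to 3′ on the gene's strand, and capitals mark the match to a 3-unit array, that is GAA, TTC and GAA or TTC, GAA and TTC, with 2 bases of any kind (NN) between units. Those patterns are each other's reverse complement, so that both strands were searched, and overlapping matches were joined.
CHORDC1, chr11:90223083-90223112, minus strand: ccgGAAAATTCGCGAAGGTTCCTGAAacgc
HSPA8, chr11:123062170-123062199, minus strand: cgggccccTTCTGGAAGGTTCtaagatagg
HSPA8, chr11:123062345-123062374, minus strand: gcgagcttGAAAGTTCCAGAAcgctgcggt
HSP90AA1, chr14:102087111-102087140, minus strand: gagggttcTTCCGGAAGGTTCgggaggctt
HSP90AB1, chr6:44247770-44247799, plus strand: ggagcaggTTCTGGAAGATTCatgggctcc
HSP90AB1, chr6:44247823-44247852, plus strand: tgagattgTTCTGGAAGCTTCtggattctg
The CHORDC1 match ran over 23 bases, from 60 to 38 bases before the start.

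A 3-unit array was found in windows of 5 of the 10 genes, namely HSPA8, HSP90AA1, HSP90AB1, CHORDC1 and DNAJA1 (just after its start, not printed), and in 0.608% of the 27305 genes with a window (0.49% of 35116 windows). The shorter 2-unit patterns, GAA and TTC or TTC and GAA with NN between, each its own reverse complement and contained in the longer ones, were found in 7 of the 10 genes and in 16.2% of all genes (13.5% of windows). STIP1 held only the 2-unit pattern, at 1 place just after a start (not printed). DNAJB1 also held only that pattern, at 3 places in 2 of its 3 windows. The 2 DNAJB1 matches that neighbour each other in 1 window are printed, with the match in capitals.
DNAJB1, chr19:14518426-14518455, minus strand: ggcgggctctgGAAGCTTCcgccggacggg
DNAJB1, chr19:14518456-14518485, minus strand: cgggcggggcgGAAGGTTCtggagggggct
No match of either length was found in the windows of HSPH1, HSPA4 and AHSA1. A match is a description of letters, and its absence says only that these letters were not in this window.

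The libraries held 1502070 to 3676250 reads each, of which 830574 to 1579740 were labelled. The overexpressed gene, ZC3H7B, was 0.28 higher on the log2 scale in its line (SE 0.08, adjusted p = 0.0035, edgeR's quasi-likelihood test with Benjamini-Hochberg adjustment), with 193 to 359 CPM in control and 412 to 465 in ZC3H7B-OE at 0 h. The lines overlapped at 2 h (283 to 377 and 291 to 358 CPM) and were separate, ZC3H7B-OE higher, at 4 h (205 to 249 and 275 to 295) and 6 h (203 to 221 and 255 to 273). Of 7 markers of HEK293 in use, 6 were in the tables, of which NEFM had 1 read per line and PAX2 had 3 and 10, so those neural and renal markers were near 0. VIM averaged 3.58 CPM in control and 3.98 in ZC3H7B-OE, KRT8 15.9 and 11.9, and KRT18 8.88 and 10.5. Control libraries summed to 201 to 502 CPM of these markers and ZC3H7B-OE libraries to 91.4 to 303 CPM, most of it LIN28B. LIN28B itself differed between lines, with means of 339 CPM in control and 193 CPM in ZC3H7B-OE. Its log2 difference of -0.89 over all times was called by edgeR, and the part of LIN28B in the results was not tested. Markers of leukocytes summed to 5.44 to 33.8 CPM in control and 6.53 to 33.1 in ZC3H7B-OE, with PTPRC and CD3E at 0. Among them CD74 averaged 11.3 CPM in control and 15.0 in ZC3H7B-OE, above VIM and KRT18 in both lines. Fibroblast markers reached 6.14 and 6.38 CPM at most, with COL1A2 and DCN at 0. Other epithelial markers reached 82 and 38.8 CPM at most, with KRT14 at 0. Among these EPCAM averaged 30.7 CPM in control and 19.9 in ZC3H7B-OE. Apart from LIN28B, every HEK293 marker in the tables had a lower mean than EPCAM in both lines. The control library of replicate 3 at 0 h stood apart, with a TMM factor of 0.724 against 0.925 to 1.08 in the other 23 and with 10.7% of its reads in its 10 most abundant entries. Several results that rest on it are given with and without it. Others are given only with it, among them the rates of label loss of HSPA8 and HSP90AA1 in control. The fall in HSP90AA1 level by 6 h in control is also given only with it.

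Over the 4 times together, 5 of the 8 tested chaperone genes were lower in ZC3H7B-OE than in control and 0 were higher. CHORDC1 was 2.16-fold lower, HSPH1 1.83-fold, DNAJA1 1.7-fold, HSPA4 1.28-fold and HSPA8 1.27-fold. The J-domain gene DNAJB1 and both HSP90 genes did not pass the test. Of all 10038 entries tested, 25.4% were lower and 20.3% higher, and the median log2 difference was -0.35 over the 8 genes and 0.01 over all entries. Levels are counts per 1000000 reads after TMM scaling (CPM), and each fold is a fitted ratio of group means from edgeR's quasi-likelihood test, called at an adjusted p under 0.05. In RNA from whole cultures, fewer cells with a transcript and less transcript per cell cannot be told apart.

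**Figure D1:**
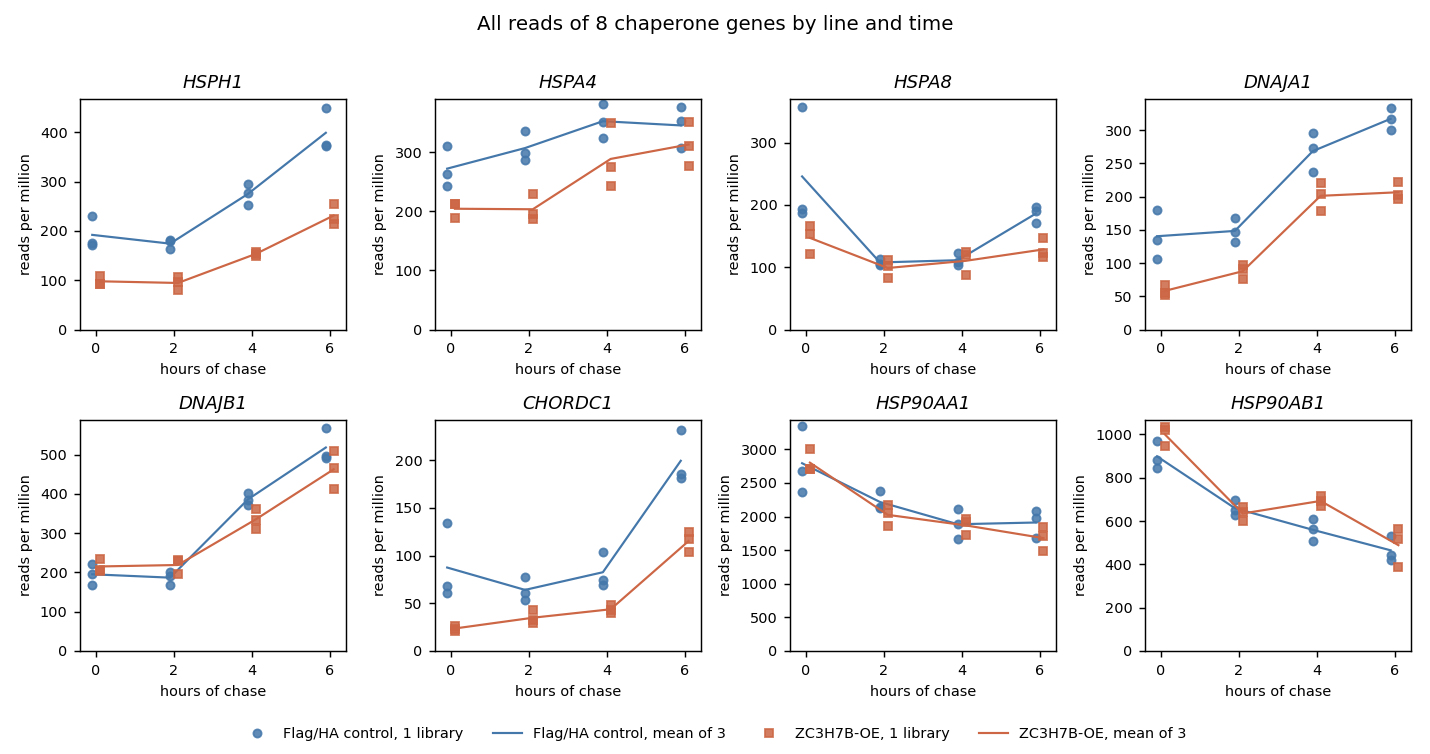
All reads of the 8 tested genes in CPM (vertical axis, from 0) against hours of chase, with 1 point per library and lines through the mean of 3 libraries; points of the lines are set 0.1 h to either side of their time. HSPH1, DNAJA1 and CHORDC1 had every ZC3H7B-OE library below every control library at each of the 4 times, while HSP90AA1 overlapped throughout.

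HSPA8 is the constitutive cytosolic HSP70. HSPA8 in control libraries gave 193, 188 and 357 CPM before the chase, 105, 104 and 114 after 2 h, 123, 103 and 108 after 4 h, and 197, 171 and 189.7 after 6 h. HSPA8 in ZC3H7B-OE libraries gave 166, 154 and 122 CPM before the chase, 101, 82.7 and 112 after 2 h, 87, 119.5 and 124 after 4 h, and 116, 123 and 147 after 6 h. The groups did not overlap at 0 and 6 h, where ZC3H7B-OE was lower, and overlapped at 2 and 4 h. The difference over all times was -0.35 (log2, SE 0.10, adjusted p = 0.00298, edgeR). At 0 h it was -0.73 (adjusted p = 0.0038), and without control replicate 3 of 0 h, whose 357 CPM stood above the other libraries, it was -0.37 and no longer passed (adjusted p = 0.0744, edgeR). Leaving out the 0 h libraries of both lines, the difference was -0.22 (adjusted p = 0.111, edgeR). At 6 h it was -0.53 with an edgeR adjusted p of 0.046, a call that was lost in 18 of 29 alternative fits. HSPA8 has many processed copies in the genome, and the sources used here do not say how shared reads were counted.

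Of the HSP110 genes, HSPH1 was the more different between lines. HSPH1 in control libraries gave 175, 171 and 229 CPM before the chase, 181, 163 and 179 after 2 h, 295, 253 and 276 after 4 h, and 449, 373 and 374 after 6 h. HSPH1 in ZC3H7B-OE libraries gave 93.2, 92.6 and 108 CPM before the chase, 95.6, 81.1 and 107 after 2 h, 157, 149 and 154 after 4 h, and 214, 254 and 225 after 6 h. Every ZC3H7B-OE library was below every control library at all 4 times. The log2 difference was -0.96, -0.88, -0.84 and -0.79 at the successive times, each called by edgeR, and -0.87 over all times (SE 0.07, adjusted p = 6.06e-12, edgeR). Its call at each time held in all 29 alternative fits, and without control replicate 3 of 0 h the difference at 0 h was -0.83.

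HSPA4, the other HSP110 gene, differed less. HSPA4 in control libraries gave 311, 263 and 242 CPM before the chase, 335, 298 and 287 after 2 h, 351, 324 and 380.3 after 4 h, and 376, 306 and 352 after 6 h. HSPA4 in ZC3H7B-OE libraries gave 212, 189 and 212 CPM before the chase, 186, 229 and 195 after 2 h, 348, 243 and 274 after 4 h, and 277, 351 and 310.0 after 6 h. The lines were separate at 0 and 2 h, with ZC3H7B-OE lower, and overlapped at 4 and 6 h. The log2 difference was -0.36 over all times (SE 0.07, adjusted p = 8.89e-05, edgeR), -0.42 at 0 h (adjusted p = 0.0258) and -0.59 at 2 h (adjusted p = 0.0056). Leaving out control replicate 1 or any 1 of the 3 ZC3H7B-OE libraries of 0 h ended the call at 0 h, with values of -0.33 to -0.44, and leaving out control replicate 1 of 2 h ended that at 2 h (adjusted p = 0.0563, edgeR).

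DNAJA1 is a class A J-domain partner of HSP70. DNAJA1 in control libraries gave 135, 107 and 179.7 CPM before the chase, 167, 146 and 131 after 2 h, 295, 237 and 272 after 4 h, and 333, 300.5 and 317 after 6 h. DNAJA1 in ZC3H7B-OE libraries gave 67.6, 51.9 and 55.1 CPM before the chase, 90.4, 75.7 and 97 after 2 h, 221, 179 and 203 after 4 h, and 196, 202 and 221 after 6 h. The ZC3H7B-OE libraries were the lower ones at all 4 times, with no overlap. The log2 difference was -1.26, -0.76 and -0.62 at 0, 2 and 6 h, each called by edgeR and each kept in all 29 alternative fits. At 4 h the difference of -0.42 did not pass (adjusted p = 0.055, edgeR), and it was called in 6 of 29 alternative fits, among them the DESeq2 test, the replicate block and the libraries of 4 h alone. Over all times it was -0.76 (SE 0.08, adjusted p = 1.85e-09, edgeR), and at 0 h without control replicate 3 it was -1.06.

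DNAJB1 is a class B J-domain protein and a frequent readout of HSF1 activity. DNAJB1 in control libraries gave 220.3, 169 and 197 CPM before the chase, 191, 202 and 167 after 2 h, 402, 385 and 372 after 4 h, and 568, 496 and 491 after 6 h. DNAJB1 in ZC3H7B-OE libraries gave 234, 207 and 204 CPM before the chase, 229, 196 and 232 after 2 h, 363, 309.9 and 333 after 4 h, and 413, 466 and 509 after 6 h. The lines overlapped except at 4 h, where all ZC3H7B-OE libraries were below control. Over all times the log2 difference was 0.00, with a 95% interval from -0.11 to 0.11 (adjusted p = 1.00, edgeR), and its sign changed between alternative fits.

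The HSP90 genes differed little between lines. HSP90AA1 in control libraries gave 2671, 2366 and 3343 CPM before the chase, 2149, 2374 and 2127 after 2 h, 1884, 1666 and 2106 after 4 h, and 2079, 1679 and 1975 after 6 h. HSP90AA1 in ZC3H7B-OE libraries gave 2700.5, 2708 and 2998 CPM before the chase, 2168, 2047 and 1859.5 after 2 h, 1916, 1726 and 1963 after 4 h, and 1491, 1707 and 1838 after 6 h. HSP90AA1, the stress-inducible HSP90, overlapped at every time, and its log2 difference over all times was -0.08 (95% interval -0.20 to 0.04, adjusted p = 0.299, edgeR). HSP90AB1 is the constitutive form. HSP90AB1 in control libraries gave 969, 844 and 883 CPM before the chase, 652, 697 and 629 after 2 h, 564, 506 and 608 after 4 h, and 531, 441 and 422 after 6 h. HSP90AB1 in ZC3H7B-OE libraries gave 1021, 1034 and 947 CPM before the chase, 639.8, 663 and 601 after 2 h, 668, 693 and 717 after 4 h, and 389, 516 and 561 after 6 h. At 4 h all ZC3H7B-OE libraries of HSP90AB1 were above control, and elsewhere the lines overlapped. The difference over all times was 0.12 (95% interval -0.00 to 0.24, adjusted p = 0.116, edgeR), and with the 2 h libraries left out it passed, at 0.18 (adjusted p = 0.0433, edgeR).

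CHORDC1, the HSP90 cochaperone, was the gene with the largest difference of the 8. CHORDC1 in control libraries gave 68.3, 60.3 and 134 CPM before the chase, 53.7, 61.1 and 77.2 after 2 h, 104, 69.1 and 74.5 after 4 h, and 232, 181 and 185 after 6 h. CHORDC1 in ZC3H7B-OE libraries gave 20.8, 23.3 and 26.7 CPM before the chase, 28.8, 32.8 and 42.9 after 2 h, 43.3, 48.3 and 39.5 after 4 h, and 125, 117 and 104 after 6 h. There was no overlap at any time, and ZC3H7B-OE was always lower. The log2 difference was -1.85, -0.87, -0.92 and -0.79 at the successive times, each called by edgeR. Over all times it was -1.11 (SE 0.11, adjusted p = 1.41e-09, edgeR). Without control replicate 3 of 0 h, which held 134 CPM against 68.3 and 60.3, the 0 h difference was -1.45 and stayed called, whereas the calls at 2, 4 and 6 h were each lost on leaving out 1 library of their own time, with values of -0.72 to -0.83, -0.71 and -0.68 to -0.73.

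By time, 5 of the 8 genes were lower at 0 h (19.5% of all entries were), 4 at 2 h (7.26%), 2 at 4 h (10.9%) and 4 at 6 h (9.23%), and 0 were higher at any time (11.7%, 2.19%, 6.79% and 6.54% of all entries). Libraries without overlap, ZC3H7B-OE below control, were seen for 5 of the 8 at 0 h (20.3% of all entries tested), 4 at 2 h (15.7%), 4 at 4 h (22.5%) and 4 at 6 h (23.0%). At all 4 times together that held for 3 genes, HSPH1, DNAJA1 and CHORDC1, and for 6.88% of entries. The difference between lines was then tested for change along the chase. By edgeR's F test of the interaction 0 of 8 passed (1.73% of all entries did). DNAJA1, CHORDC1 and HSPA8 had an unadjusted p under 0.05, as did 1846 of all 10038 entries. DESeq2 called 1, DNAJA1 (adjusted p = 0.0498), beside 632 of 10038 entries. The edgeR fit without the filter on low counts called CHORDC1 (adjusted p = 0.0204), beside 942 of 16669 entries. Without control replicate 1 of 0 h CHORDC1 passed (adjusted p = 0.0390, edgeR), beside 910 of 10536 entries. Without control replicate 2 of 0 h both DNAJA1 and CHORDC1 passed (adjusted p = 0.0239 and 0.0375, edgeR), beside 712 of 10519 entries.

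**Figure D2:**
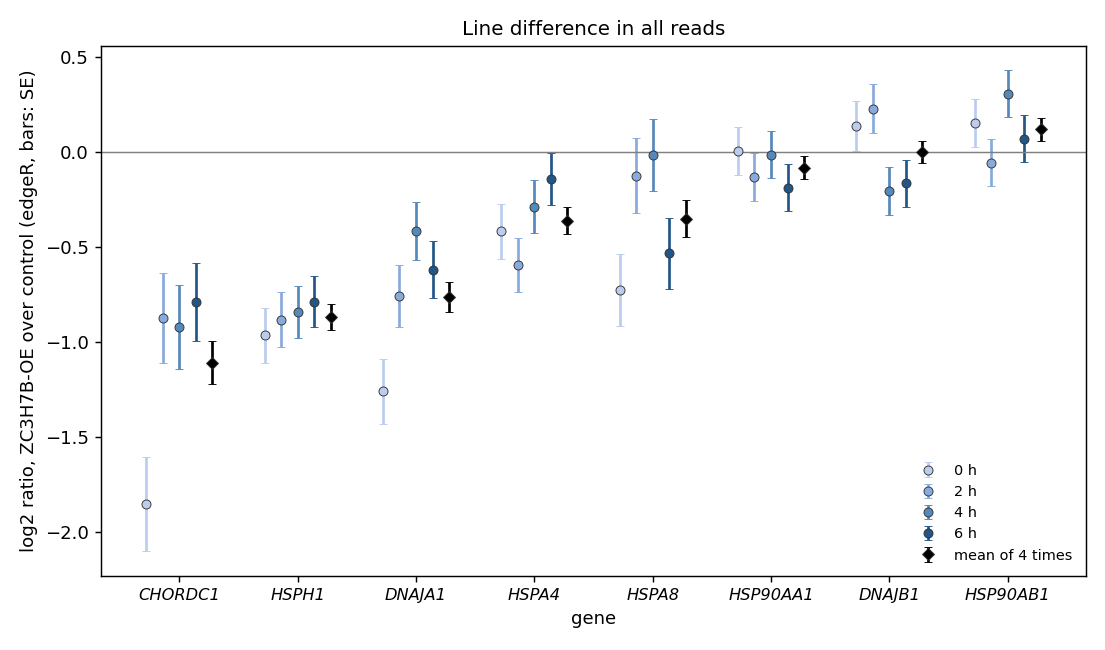
Fitted log2 ratio of ZC3H7B-OE over control (vertical axis) for the 8 tested genes (horizontal axis, ordered by the mean of 4 times), at each time (circles) and as the mean of 4 times (diamonds), with bars of 1 SE from edgeR. CHORDC1, HSPH1 and DNAJA1 lie below 0 at every time, from -1.85 for CHORDC1 at 0 h to -0.42 for DNAJA1 at 4 h. HSPA4 (-0.59 to -0.14) and HSPA8 (-0.73 to -0.02) also lie below 0 at every time.

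Along the chase, the level of most of these genes changed within each line. From 0 to 6 h, 5 of 8 rose in control and 2 fell, and the same counts were found in ZC3H7B-OE. In control 30.7% of all entries rose and 29.9% fell, and in ZC3H7B-OE 32.8% rose and 30.6% fell. The genes that rose in both lines were HSPH1, HSPA4, DNAJA1, DNAJB1 and CHORDC1, and those that fell were HSP90AA1 and HSP90AB1. The median log2 change of the 8 was 0.70 in control and 0.86 in ZC3H7B-OE, beside -0.05 and -0.08 over all entries. The contrasts of 1 line share its 0 h libraries. The hours, the wash, the end of the s4U pulse and the added uridine changed together and cannot be told apart. The same holds for any end of doxycycline or change of medium in that span.

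In control, DNAJB1 rose 2.65-fold by 6 h (log2 1.41, SE 0.13, adjusted p = 4.56e-11, edgeR), CHORDC1 2.33-fold, DNAJA1 2.28-fold and HSPH1 2.09-fold. In ZC3H7B-OE, CHORDC1 rose 4.88-fold (log2 2.29, SE 0.24, adjusted p = 6.51e-10, edgeR), DNAJA1 3.55-fold, HSPH1 2.36-fold and DNAJB1 2.15-fold. The interaction given above asks whether the line difference was the same at 0, 2, 4 and 6 h. Whether the rise from 0 to 6 h by itself differed between lines was not tested. Without control replicate 3 of 0 h, the control log2 rise was 1.64 for CHORDC1, 1.43 for DNAJB1, 1.40 for DNAJA1 and 1.22 for HSPH1. HSPA4 rose by 0.34 in control (adjusted p = 0.0374) and by 0.62 in ZC3H7B-OE (adjusted p = 3.54e-04, edgeR). The control call for HSPA4 was lost in 17 of 28 alternative fits, among them the one without control replicate 3 of 0 h (log2 0.28, adjusted p = 0.0580, edgeR).

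The timing differed between genes. At 2 h, 0 of 8 had risen in control and 3 had fallen (13.4% and 11.0% of all entries), while in ZC3H7B-OE 1 had risen, DNAJA1, and 3 had fallen (16.4% and 6.36%). At 4 h, 4 had risen and 3 fallen in control (26.7% and 26.8%), and 5 had risen and 2 fallen in ZC3H7B-OE (26.5% and 23.8%). CHORDC1 at 4 h had risen in ZC3H7B-OE (log2 0.89, adjusted p = 0.00354, edgeR) but was not called in control, where its 3 libraries held 69.1 to 104 CPM. Some of these calls rested on 1 library: the DNAJA1 rise at 2 h in ZC3H7B-OE (log2 0.60) was lost without replicate 2 of 0 h or replicate 3 of 2 h of that line, both at 0.51. The HSPA4 rise at 4 h was lost in 8 of 28 alternative fits in control and, in ZC3H7B-OE, without its replicate 1 of 4 h (log2 0.34, adjusted p = 0.0622, edgeR).

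The falling genes were the HSP90 pair and, for part of the chase, HSPA8. HSP90AB1 fell by 0.95 in control and by 1.03 in ZC3H7B-OE at 6 h on the log2 scale, and HSP90AA1 fell by 0.55 and 0.74, with edgeR adjusted p of 7.56e-08, 1.30e-08, 3.39e-04 and 5.54e-06. HSPA8 fell by 1.18 at 2 h and 1.13 at 4 h in control, and by 0.57 at 2 h in ZC3H7B-OE, the last of which was lost in 6 of 28 alternative fits. By 6 h its log2 difference from 0 h was -0.39 in control (adjusted p = 0.0709) and -0.20 in ZC3H7B-OE (adjusted p = 0.368, edgeR), neither called; the control difference was called in 13 of 28 alternative fits and the other in 0. Without control replicate 3 of 0 h the HSPA8 differences in control were -0.82, -0.77 and -0.02 after 2, 4 and 6 h. The HSP90AA1 fall at 2 h in control, -0.33, was lost in 13 of 28 alternative fits, among them the replicate block and the one without that library (log2 -0.19, adjusted p = 0.251, edgeR).

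The other genes of cytosolic and related protein folding were taken from 6 lists, of which 41 of 60 genes were tested. Over all times 11 were higher and 16 lower in ZC3H7B-OE, with a median log2 difference of -0.11, beside 20.3% higher and 25.4% lower and a median of 0.01 over all entries. In the HSP70 family list 2 of 3 were lower, HSPA4L (log2 -0.76) and HSPA14 (-0.38), and 0 were higher. Of 7 tested J-domain genes 4 were lower and 0 higher, among them DNAJB4 (-0.99), DNAJA2 (-0.37) and DNAJC21 (-0.48). HSP70 cochaperones went both ways, 4 higher and 2 lower of 7: ST13, which links HSP70 to HSP90, was lower (-0.82), as was BAG2 (-0.65), whereas HSPBP1 was higher (0.36). Among 13 HSP90 cochaperones 5 were higher and 4 lower, with the kinase-specific CDC37 at 0.51, TOMM34 at 0.37 and the immunophilin FKBP5 at -0.76. Small, mitochondrial and other heat shock genes had 1 of 8 higher, TRAP1 (0.61), and 4 lower, including HSPA9 (-0.48) and GRPEL1 (-0.46). In the list of HSF factors 1 of 3 was higher, HSF1 itself (0.45, adjusted p = 0.000668, edgeR), and 0 were lower.

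Labelled reads were then set against all reads of the same gene. At 0 h the labelled share of the 8 genes ran from 78.3% to 98.1% per library, above the mean whole-library share of 76.7% in control and 74.8% in ZC3H7B-OE. At 6 h the whole-library share was 29.9% and 29.6%. DNAJB1 lost label fastest in share: in control it gave 94.6, 98.1 and 93.9% before the chase, 65, 60.9 and 59 after 2 h, 17.4, 18.8 and 18.8 after 4 h, and 7.59, 8.33 and 7.75 after 6 h. In ZC3H7B-OE the DNAJB1 shares were 94.4, 97.7 and 94.6% before the chase, 63.3, 68.8 and 62.1 after 2 h, 19, 24 and 17.1 after 4 h, and 6.35, 8.93 and 7.92 after 6 h. By 4 h its share was below that of the whole library in all 6 libraries. HSP90AB1 kept the highest share at 6 h, with 63.2, 58.3 and 61% in control and 61.9, 60.3 and 63.8% in ZC3H7B-OE, above the whole library in each line.

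Behind the shares, unlabelled reads rose and labelled reads did not always fall. Unlabelled DNAJB1 went from 9.01 ± 4.98 to 478 ± 41.2 CPM in control (mean ± SD, n = 3), and in the other line from 9.64 ± 4.27 to 427 ± 40.9. Its labelled reads went from 186 ± 21.6 to 40.8 ± 2.56 CPM in control, and in the other line from 206 ± 14.4 to 36.1 ± 8.52. The higher level of DNAJB1 at 6 h was made up of unlabelled reads. CHORDC1 held 77.9 ± 39.6 labelled CPM at 0 h and 66.7 ± 12.7 at 6 h in control, and 19.6 ± 2.6 and 35.8 ± 3.17 in ZC3H7B-OE (SD, n = 3). The control mean at 0 h rests on replicate 3, with 124 labelled CPM against 58 and 52.2, and without it the mean was 55.1, below that at 6 h. Unlabelled CHORDC1 reached 133 ± 18.2 CPM in control and 79.4 ± 9.96 in ZC3H7B-OE.

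**Figure D3:**
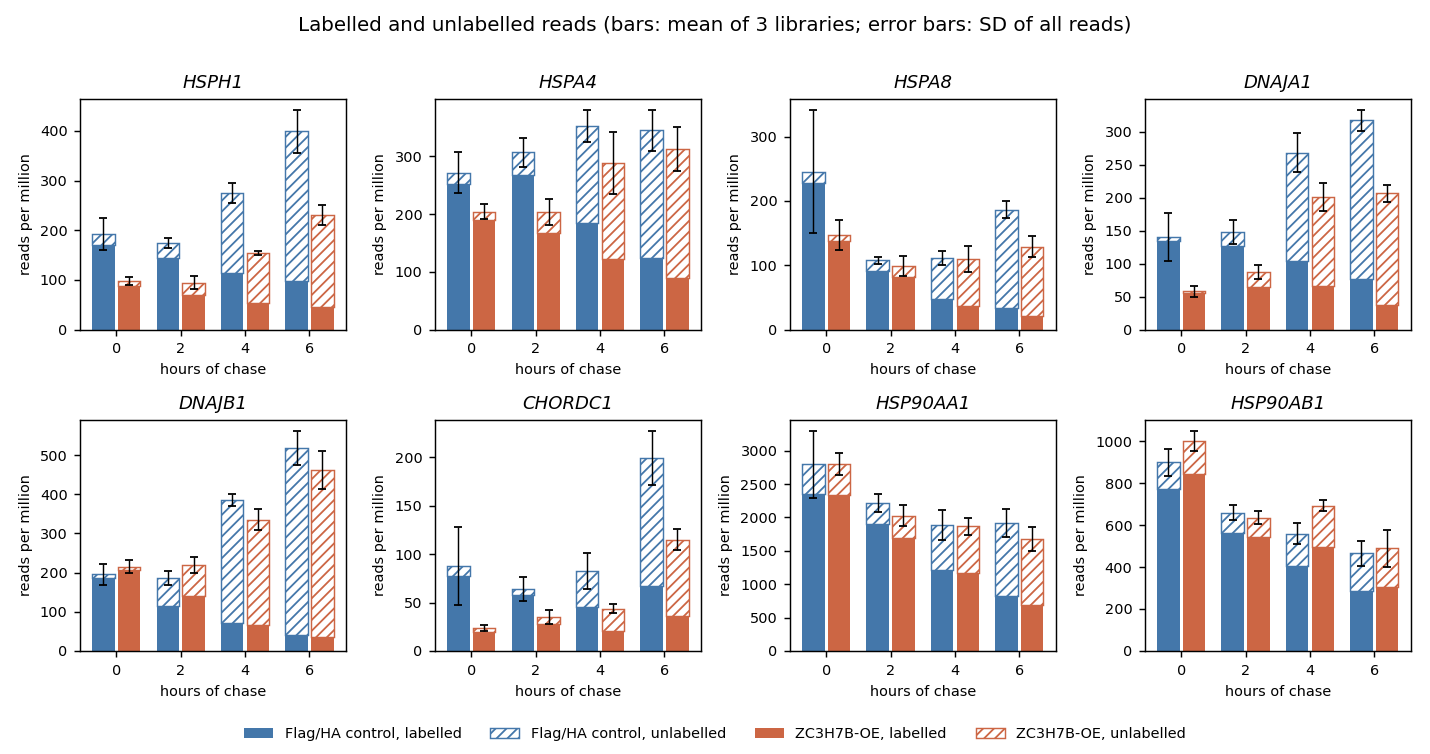
Labelled (filled) and unlabelled (hatched) reads in CPM, stacked from 0, for the 8 tested genes by hours of chase, as means of 3 libraries, with error bars of 1 SD of all reads. Unlabelled DNAJB1 reaches 478 CPM in control and 427 CPM in ZC3H7B-OE at 6 h, while its labelled part falls to 40.8 and 36.1 CPM.

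The fall of labelled reads per hour, relative to all reads of the library, gave an order among the genes. That order rests in part on the 0 h libraries. A half-life here is the time in which a falling line drops by 1 on the log2 scale, which assumes 1 straight slope from 0 to 6 h. Over 0 to 6 h HSPA8 fell fastest, with 2.17 h in control (95% interval 1.85 to 2.62) and 2.15 h in ZC3H7B-OE (1.82 to 2.63). The control value includes replicate 3 of 0 h, with 325 labelled CPM for HSPA8 against 178 and 178. DNAJB1 followed, at 2.75 h (2.33 to 3.35) and 2.32 h (2.01 to 2.74), then HSP90AA1 at 3.85 and 3.46 h and HSP90AB1 at 4.15 and 4.4 h. The intervals of neighbours in this order overlapped within a line, except for DNAJB1 and HSP90AA1 (2.93 to 4.23 h) in ZC3H7B-OE. The HSP110 genes had longer values, HSPA4 at 5.5 h (4.05 to 8.56) and 5.41 h (4.02 to 8.26). HSPH1 had 7.36 h (5.07 to 13.4) and 6.16 h (4.44 to 10.1), and DNAJA1 7.51 h in control (4.67 to 19.1). All of these intervals overlapped those of HSP90AB1, 3.38 to 5.38 h in control and 3.54 to 5.81 h in ZC3H7B-OE. Labelled HSPA4 in control averaged 252 CPM at 0 h, 268 at 2 h and 124 at 6 h. Its means thus did not fall from 0 to 2 h.

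In control 7 of 8 slopes were falling by edgeR (75.5% of 8763 entries tested), all but CHORDC1 (log2 -0.04 per h, SE 0.05). In ZC3H7B-OE 6 were falling (72.3%), DNAJA1 was not called (-0.07 per h), and CHORDC1 rose by 0.11 per h (adjusted p = 0.0487, edgeR; 1.97% of entries rose). That call was lost in 17 of 28 alternative fits. At the median over entries the half-lives were 3.79 and 4.1 h in the respective lines. The slopes differed between lines for 0 of 8 genes and for 0 of all 8763 entries (0%) by edgeR, with 1 of the 8, CHORDC1, and 482 of all entries at an unadjusted p under 0.05 (difference 0.16, SE 0.07, adjusted p = 0.833). The SE of the 8 slope differences was 0.04 to 0.07 per h. With the 0 h libraries left out, the DNAJA1 slope in ZC3H7B-OE was -0.20 per h and was called (adjusted p = 2.00e-04, edgeR), that of HSPA4 in control was -0.29, and the CHORDC1 slope difference was 0.05. Without control replicate 3 of 0 h the CHORDC1 difference was 0.08, and without ZC3H7B-OE replicate 2 of 6 h the DNAJA1 slope in that line was -0.04. With scaling to labelled reads alone, which sets the average labelled entry to no fall, the slopes of HSPH1, HSPA4, HSP90AB1 and DNAJA1 turned positive in both lines.

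The odds of a read being labelled were also compared between lines. New unlabelled RNA lowers these odds, so along the chase they move with the level of a gene as well as with the loss of labelled RNA. Over all times 4 of 8 genes had lower odds in ZC3H7B-OE and 0 had higher (8.71% of 10351 entries were lower and 0.947% higher): DNAJA1 at -0.58 on the log2 scale, CHORDC1 at -0.60, HSPA4 at -0.37 and HSPH1 at -0.37, with edgeR adjusted p of 0.00785, 0.0308, 0.00878 and 0.0411. These are 4 of the 5 genes that were lower in all reads. The median over all entries was -0.13. By limma 1 of the 8 genes passed over all times (528 of 10351 entries). With odds set relative to the whole library 0 of the 4 passed by limma (319 of 10351 entries). That fit differs from the edgeR one in both test and scaling, so the loss of calls cannot be laid to the scaling. Without control replicate 3 of 0 h CHORDC1 (-0.52, adjusted p = 0.0739) and HSPH1 (-0.36, adjusted p = 0.0549) no longer passed by edgeR. Of 28 alternative fits the call was lost in 20 for HSPH1, 11 for CHORDC1, 2 for HSPA4 and 1 for DNAJA1.

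Shares of the whole library overlapped between lines at 0 and 6 h. At 0 h control replicates 1, 2 and 3 held 78.0, 77.4 and 74.8%, and ZC3H7B-OE libraries 74.3 to 75.1%. That overlap thus rests on control replicate 3, the library that stood apart. The shares were lower in ZC3H7B-OE without overlap at 2 h (73.7 to 77.2% in control, 70.8 to 72.4% in ZC3H7B-OE). The same held at 4 h (47.2 to 48.6% and 45.1 to 46.1%). Shares without overlap, ZC3H7B-OE below control, were seen for 1 of the 8 genes at 0 h (8.33% of 10351 entries), 3 at 2 h (13.3%), 4 at 4 h (16.6%) and 4 at 6 h (12.9%). DNAJA1 and HSP90AA1 were both among them at 2, 4 and 6 h. HSP90AA1, which was not called in level, had 85.4 to 85.9% in control and 82.1 to 84.8% in ZC3H7B-OE after 2 h. Its odds were not called at any single time or over all times (adjusted p = 0.283 at 2 h and 0.0945 over all times, edgeR). The labelled share of DNAJA1 in control was 97.4, 94.4 and 93.8% before the chase, 89.6, 84.9 and 81.5 after 2 h, 37.1, 35.7 and 42.6 after 4 h, and 26.4, 24.5 and 22 after 6 h. In ZC3H7B-OE it was 95.6, 93.5 and 93.7% before the chase, 71.3, 70.2 and 77.9 after 2 h, 34, 34.9 and 29.9 after 4 h, and 19.3, 16.4 and 19.4 after 6 h. The lines overlapped for DNAJA1 at 0 h, and at 2, 4 and 6 h every ZC3H7B-OE library was below every control library. By time, 2 genes had lower odds at 2 h, DNAJA1 (-1.11) and HSPH1 (-0.83), beside 4.75% of entries, and 1 at 4 h, HSPA4 (-0.58), beside 3.01%. Leaving out control replicate 1 of 2 h ended both calls at 2 h, where HSPH1 then stood at -0.46 and DNAJA1 at -0.85. Of 28 alternative fits, the call was lost in 17 for HSPH1 at 2 h and in 8 for HSPA4 at 4 h. At 0 h and 6 h 0 of 8 passed by edgeR (0 and 3 at an unadjusted p under 0.05), beside 0.860% and 5.99% of entries changed either way, and limma also called 0 of 8 at both times.

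The other 3 genes with lower odds over all times were HSPH1, HSPA4 and CHORDC1. HSPH1 in control had a share of 87.9, 87.9 and 89.2% before the chase, 90.1, 84.4 and 74.6 after 2 h, 41.2, 37.8 and 44.7 after 4 h, and 24.2, 25.4 and 24.2 after 6 h. With ZC3H7B-OE its share was 86.6, 92.1 and 89.2% before the chase, 71.1, 76.2 and 74.2 after 2 h, 30.3, 35.3 and 38.8 after 4 h, and 19.3, 17.5 and 22 after 6 h. The HSPH1 shares of the lines overlapped at 0, 2 and 4 h and were separate at 6 h, with ZC3H7B-OE lower. HSPA4 in control had a share of 92.2, 91.7 and 94.3% before the chase, 88.1, 89.8 and 84 after 2 h, 53.5, 53.7 and 50.8 after 4 h, and 35, 38.3 and 35.2 after 6 h. With ZC3H7B-OE it was 91.6, 94.9 and 92.9% before the chase, 78.6, 85 and 83.5 after 2 h, 40.4, 44.2 and 43.8 after 4 h, and 29.2, 26.5 and 30.9 after 6 h. The lines overlapped at 0 and 2 h and were separate at 4 and 6 h, with ZC3H7B-OE lower. CHORDC1 in control had a share of 84.9, 86.5 and 92.4% before the chase, 90.5, 92 and 90.2 after 2 h, 53.3, 50 and 61 after 4 h, and 34.5, 36.3 and 29.4 after 6 h. With ZC3H7B-OE it was 80.0, 91.7 and 78.3% before the chase, 74, 77 and 85.7 after 2 h, 51.1, 42.3 and 50.9 after 4 h, and 27.8, 33.6 and 32.2 after 6 h. Only at 2 h were the CHORDC1 shares of the lines separate, with ZC3H7B-OE lower. HSPA8 ended the chase at 14.7 to 21.6% in control and 12.7 to 18.7% in ZC3H7B-OE, and HSP90AA1 at 42 to 44% and 41.1 to 41.9%.

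**Figure D4:**
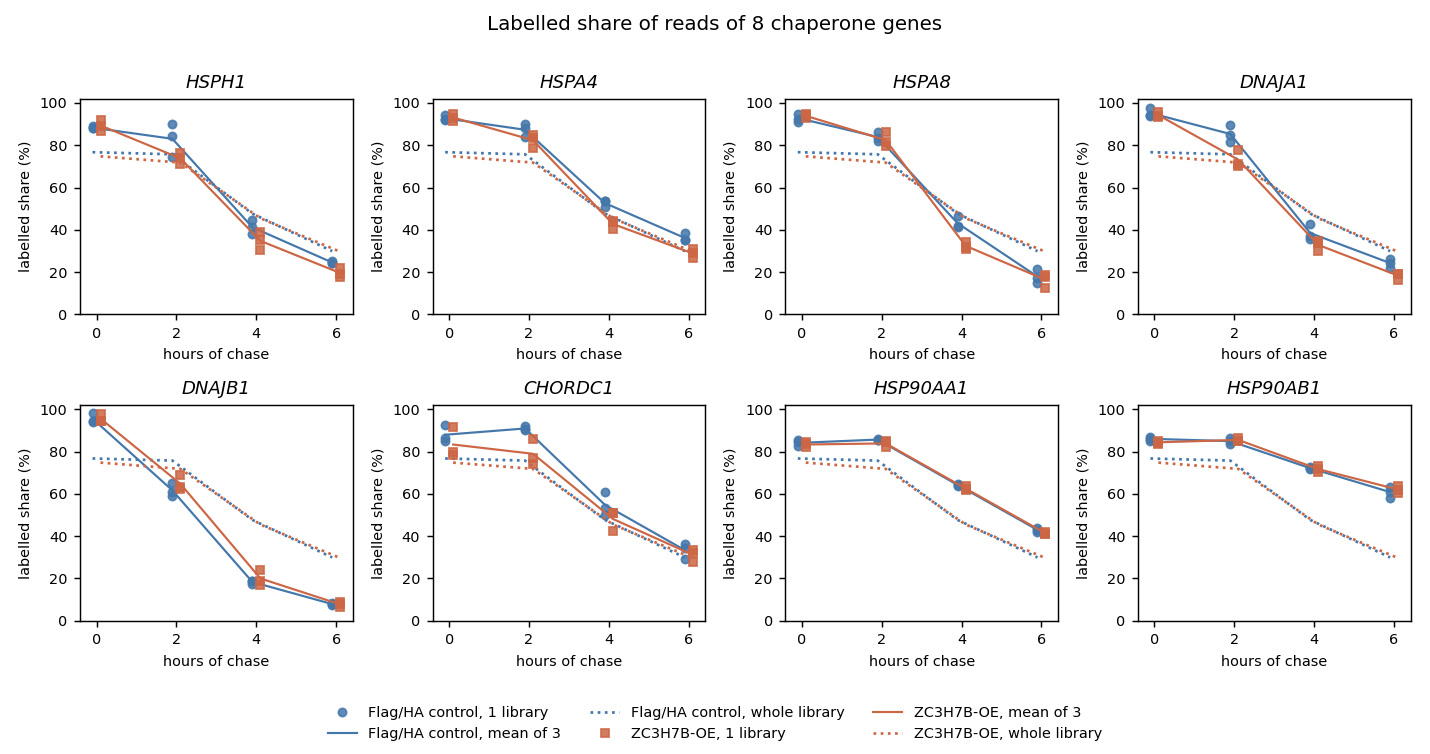
Labelled share of each gene's reads in percent (vertical axis) against hours of chase, with 1 point per library, solid lines through the mean of 3 and dotted lines for the whole library; points of the lines are set 0.1 h to either side of their time. DNAJB1 drops to 6.35 to 8.93% at 6 h and HSP90AB1 stays at 58.3 to 63.8%, beside whole-library means of 29.9% in control and 29.6% in ZC3H7B-OE.

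Across the 24 libraries the genes did not share 1 profile. The mean of the 8 z-scored log2 CPM profiles correlated with HSPH1 at Pearson r = 0.90, with CHORDC1 at 0.84, with DNAJA1 at 0.77 and with HSPA4 at 0.74. The correlation was 0.65 for HSPA8 and 0.58 for DNAJB1, lay near 0 for HSP90AA1 (0.00) and below 0 for HSP90AB1 (-0.29). Each gene is part of that mean, and libraries share line, time and depth, so these values are a description. The closest pair was CHORDC1 and HSPH1 (r = 0.93), followed by HSPH1 and DNAJA1 (0.91). Of the genes outside the 10, the 6 most like the mean profile over the 24 libraries were CCT6A (0.96), a subunit of the cytosolic chaperonin, and UBE2D3 (0.89), KLHL23 (0.89), DEGS1 (0.89), SLFN11 (0.88) and ELOVL4 (0.88).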

How the data were processed

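All reads and labelled (T>C) reads were deposited by the authors as whole-number counts per gene for 24 libraries, not normalized. Per the submitters' processing notes, fastp and the genome build GRCh37 were used. The sources used here do not name the aligner, the conversion caller, the counting rule or its use of strand, so genes with close copies or antisense neighbours are uncertain. The 10 genes, the lists and the tests were chosen with earlier results of these data known.

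The tests on all reads used the robust quasi-likelihood fit of edgeR 4.0.16 (R 4.3.3) after TMM and filterByExpr (minimum count 10), with 1 mean per line and time and Benjamini-Hochberg adjustment over 10038 entries. Labelled slopes took their scaling from all reads (8763 entries). Labelled odds compared labelled with unlabelled reads within libraries, for entries with at least 10 of each per line (10351). PCR reads are not independent molecules. Alternatives were DESeq2 1.42.0, limma 3.58.1, other scaling and filters, the replicate block and leaving out each library. The fits were tested on simulated data, where line differences in level and odds were mostly recovered and most differences in slope were missed. Named were all 10 genes, up to 3 called genes with the smallest adjusted p from each other folding list, and the 6 entries most like the mean profile. Promoter stretches come from RefSeq (GRCh38.p14), a build other than that of the counts.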

Additional observations from a re-analysis of the deposited data

How the results depend on the processing

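Fitted on the libraries of 1 time alone, 3 of 8 genes were called between lines at 0 h and 5 at 4 h. For the interaction, DESeq2 called 1 (632 of 10038 entries) and the fit without a filter on low counts 1 (942 of 16669). For labelled odds, limma called 0 at 2 h, 0 at 4 h and 1 over all times (528 of 10351 entries). Limma relative to the library called 0, 0 and 0 (319 of 10351 entries over all times). With at least 50 reads of each kind per line 1 was called at 6 h. Leaving out 1 library at a time gave 4 to 5 calls between lines at 0 h, 3 to 4 at 2 h, 1 to 4 at 4 h, 2 to 4 at 6 h and 5 to 5 over all times. Chase contrasts gave 2 to 4, 6 to 8 and 6 to 8 calls in control and 2 to 5, 6 to 8 and 7 to 7 in ZC3H7B-OE at 2, 4 and 6 h. The interaction gave 0 to 2, the slopes 7 to 7 in control and 6 to 7 in ZC3H7B-OE, their difference 0 to 0, and the odds 0 to 0, 0 to 3, 0 to 1 and 0 to 1 by time and 2 to 4 over all times.

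The difference of DNAJB1 over all times turned negative with DESeq2 size factors (-0.0041), the DESeq2 test (-0.00387), without 0 h (-0.0463) and without 2 h (-0.0764), and ran from -0.0316 to 0.0375 with 1 library left out. The CHORDC1 slope in control was 0.0435 without 0 h, and ran from -0.0804 to 0.0329 with 1 library left out. With library sizes of labelled reads, slopes in control were 0.203 for CHORDC1, 0.109 for HSPH1, 0.0648 for HSPA4, 0.00168 for HSP90AB1 and 0.112 for DNAJA1, and in ZC3H7B-OE 0.0727 for HSPH1, 0.0514 for HSPA4, 0.00489 for HSP90AB1 and 0.162 for DNAJA1; that scaling removes the average fall by construction. The cause of the other changes was not tested. Of the remaining alternative values for the gene results given in the report, 2220 kept direction and side of the threshold, 160 lost a call and 21 gained one.

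Replicate numbers are shared between groups. Same-numbered samples correlated at -0.117 to 0.214 over 12 pairs, 1 of them over 0.1. Whether they shared a culture or handling is not known, and these values cannot settle it. With the replicate block 5 genes were called between lines over all times, 5, 4, 3 and 4 at the single times, and 2 at 2 h of chase in control. STIP1 and AHSA1 had too few reads to compare, and labelled odds at 0 h rest on few unlabelled reads.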

Other observations

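Among the folding genes outside the 10, HSPA1B, DNAJB4 and HSF2 had the largest rises from 0 to 6 h of chase in control, and HSPA1B and HSF2 are named here after their values were seen. HSPA1B, a stress-inducible HSP70, rose by 4.26 on the log2 scale in control (SE 0.30) and by 3.33 in ZC3H7B-OE, with edgeR adjusted p of 2.96e-11 and 5.56e-10. Its line difference over all times was 0.16 (adjusted p = 0.363, edgeR). HSPA1A, a near-identical copy, had 3 reads in all libraries against 17418 for HSPA1B, so the split between the copies is uncertain. DNAJB4 rose by 3.42 in control and 3.90 in ZC3H7B-OE. HSF2, a relative of HSF1, rose by 3.76 and 4.56.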
